A study of Mus musculus with 6 samples.

Results

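The genes described here are the 4 Notch receptor genes Notch1, Notch2, Notch3 and Notch4, the ligand genes Jag1 and Jag2, and the target genes Hes1, Hey1, Hey2 and Heyl. They were selected on knockout and wild-type CPM of these same libraries and on their place in the pathway, and taken by name. The 10 rows were found among 49671 gene rows of the deposited count table. All libraries came from whole testes of C57BL/6J mice aged 12 days, when germ cells of the first wave are in early meiotic prophase. The 3 knockout libraries were from Ankrd31-/- mice and the 3 wild-type libraries from Ankrd31+/+ mice, and no treatment is named for either genotype. The Ankrd31 protein carries ankyrin repeats and takes part in placing the programmed DNA breaks of meiosis. How the mutant allele was made is not given in the sources used here, and the study set the genotypes side by side to ask how its loss affects the testicular transcriptome.

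Notch signalling passes between touching cells. A Jagged or Delta ligand on a cell binds a Notch receptor on its neighbour, the receptor is cut by an ADAM protease and then by gamma-secretase, and the freed intracellular part joins the DNA-binding protein RBPJ to switch on target genes. Hes and Hey genes are classic targets and encode basic helix-loop-helix repressors. In the mouse testis the pathway has been studied in Sertoli cells, which can be signalled to by germ cells carrying Jagged ligand, and in Leydig cell precursors, while Notch3 and Notch4 are best known from blood vessels.

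Library totals were 21014060 to 22706296 counts. Ankrd31 itself stood at 40.8, 33.2 and 38.0 CPM (counts scaled to the effective size of each library) in knockout replicates 1, 2 and 3, against 84.9, 52.3 and 63.3 CPM in wild-type replicates 1, 2 and 3, so that the genotypes did not overlap. Exons outside any deleted part also add to that level, which therefore checks the labels only in part. The Sertoli list (9 of 9 markers detected) summed to between 6047 and 6407 CPM in knockout libraries and between 5557 and 6288 CPM in wild-type libraries, so markers of the labelled tissue were present. Wild-type replicate 3 stood apart in 5 epididymis and rete markers, whose sum was 58.7 CPM there, against 2.69 to 7.70 CPM in knockout libraries and 2.81 and 5.54 CPM in the other wild-type libraries. Replicate 1 of both genotypes had the highest sum of 6 spermatocyte markers, at 1120 CPM in the knockout and 1139 CPM in the wild type, against 781 and 926 CPM in knockout replicates 2 and 3 and 588 and 746 CPM in wild-type replicates 2 and 3.

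Jag2, Notch2 and Hes1 were the most abundant of the 10 genes per length, and Notch4 and Hey2 the least. In RPKM (CPM per kilobase of exon), Jag2 averaged 19.5 ± 1.52, Notch2 17.4 ± 2.31 and Hes1 16.2 ± 0.884 over the 6 libraries (SD, n = 6). The ranges of these neighbours overlapped, and their order did not hold in each library, so they are not set apart from each other. Notch1 followed at 9.25 ± 0.462 RPKM, below Hes1 in 6 of 6 libraries. Jag1 at 5.43 ± 0.513, Hey1 at 5.20 ± 0.835 and Heyl at 5.19 ± 0.966 RPKM formed a group whose ranges overlapped. Notch3 lay below that group at 2.64 ± 0.391 RPKM, without overlap. Notch4 at 0.845 ± 0.0757 and Hey2 at 0.745 ± 0.0727 RPKM overlapped with each other and lay below Notch3 in 6 of 6 libraries. Set against 18040 tested genes, mean RPKM placed Jag2 at percentile 78.2, Heyl at 46.4 and Hey2 at 16.3.

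**Figure D1:**
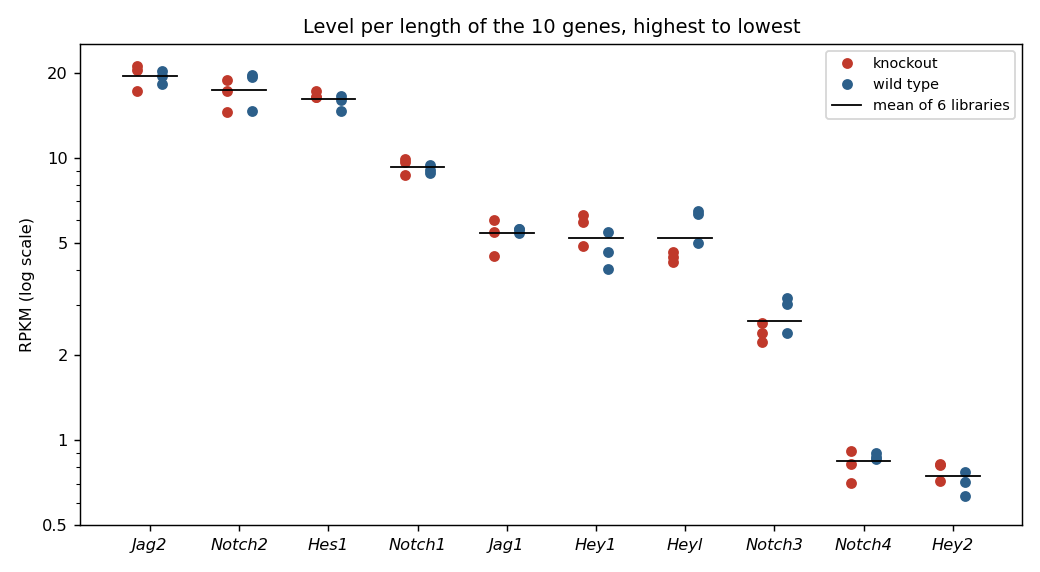
Level per exon length (RPKM, log axis) of the 10 genes in 3 knockout and 3 wild-type libraries, with the mean of 6 libraries as a line. Jag2, Notch2 and Hes1 lie between 14.5 and 21.2 RPKM, with overlap between neighbours in the order, and Notch4 and Hey2 lie below 1 RPKM.

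The receptor pool was mostly Notch2 and Notch1. Notch2 made up 55.3, 57.1 and 58.9% of the summed RPKM of the 4 receptors in knockout replicates 1, 2 and 3, against 54.3, 60.6 and 58.8% in wild-type replicates 1, 2 and 3. Notch1 made up 31.9 ± 1.16% in knockout and 29.9 ± 3.21% in wild-type libraries (SD, n = 3 each). Both shares overlapped between the genotypes. For Notch3 the share was 8.48, 7.91 and 8.11% in knockout libraries, against 8.88, 9.39 and 9.74% in wild-type libraries, without overlap. The RPKM of Notch3 did overlap, and how often such shares part the genotypes over all tested genes was not computed. Among the ligand genes Jag1, Jag2, Dll1, Dll3 and Dll4, Jag2 held 66.6 ± 0.873% of the summed RPKM in knockout and 65.7 ± 0.582% in wild-type libraries. Dll4, the Delta ligand of sprouting vessels, held 4.79 ± 1.11% in knockout and 4.67 ± 0.945% in wild-type libraries.

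Promoter sequences from RefSeq (GRCm38.p6) were matched for 7 of the 10 genes, namely the 4 receptors, Jag1, Jag2 and Hey2. Windows of 250 bases before to 50 bases after the start were searched on both strands for TGGGAA, the core bound by RBPJ, for CACGCG, a class C site bound by Hes and Hey proteins, and for the E-box CACGTG. The sequences of the promoters with a match are shown because they place the letters of pathway sites beside genes of the pathway, and the first 280 bases are printed with matches in capitals. Hey2 alone of the 7 held TGGGAA, on the opposite strand at bases 44 to 49 and on the gene's strand at bases 248 to 253, across the start, counted from 1 at the first base printed. It is given from the minus strand of chr10:30842754-30843033.
Hey2: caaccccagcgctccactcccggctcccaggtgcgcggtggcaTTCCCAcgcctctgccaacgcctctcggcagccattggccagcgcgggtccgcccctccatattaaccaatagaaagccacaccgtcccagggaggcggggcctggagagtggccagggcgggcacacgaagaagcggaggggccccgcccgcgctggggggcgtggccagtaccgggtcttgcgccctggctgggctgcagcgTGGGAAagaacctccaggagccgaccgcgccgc
CACGCG was found in 3 of the 7, at 2 places in Jag1 (minus strand, chr2:137116491-137116770) and once each in Notch2 (plus strand, chr3:98013288-98013567) and Jag2 (minus strand, chr12:112929466-112929745).
Jag1: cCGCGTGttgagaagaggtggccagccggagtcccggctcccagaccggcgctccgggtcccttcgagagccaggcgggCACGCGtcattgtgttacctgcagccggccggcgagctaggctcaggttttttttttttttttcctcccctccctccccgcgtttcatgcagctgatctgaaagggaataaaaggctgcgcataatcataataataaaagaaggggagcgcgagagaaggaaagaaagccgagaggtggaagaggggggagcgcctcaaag
Notch2: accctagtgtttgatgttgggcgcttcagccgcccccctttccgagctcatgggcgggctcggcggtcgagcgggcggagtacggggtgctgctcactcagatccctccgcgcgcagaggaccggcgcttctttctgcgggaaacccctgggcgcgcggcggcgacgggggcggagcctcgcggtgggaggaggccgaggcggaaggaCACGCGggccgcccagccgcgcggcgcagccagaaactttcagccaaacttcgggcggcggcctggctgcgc
Jag2: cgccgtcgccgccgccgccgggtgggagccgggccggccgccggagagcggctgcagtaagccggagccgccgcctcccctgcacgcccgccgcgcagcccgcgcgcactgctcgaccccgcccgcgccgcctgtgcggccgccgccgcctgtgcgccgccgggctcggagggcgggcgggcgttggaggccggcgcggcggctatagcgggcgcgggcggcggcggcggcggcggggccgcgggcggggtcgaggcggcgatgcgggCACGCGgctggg
CACGTG was found in 0 of the 7. Of 32851 promoters in the table, 25.6% held TGGGAA, 9.27% held CACGCG and 7.15% held CACGTG. The matches describe letters and not bound sites.

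Of the 10 genes, Heyl was the single one whose levels did not overlap between the genotypes, and it was lower in the knockout testes. Notch2 and Notch3 were lower and Hey1 and Hey2 were higher in each same-number pair, with overlap between the groups. Of all tested genes, 14.7% were lower and 13.9% higher in 3 of 3 pairs. The 6 genes other than Heyl, Notch3, Hey1 and Hey2 had fitted values within 0.10 of 0 on the log2 scale. These 10 genes were chosen with the knockout against wild-type contrast of the same libraries known, so the contrast is described for them and not tested. In edgeR's quasi-likelihood fit over all genes, 0 of the 10 passed at an adjusted p under 0.05. The same fit called 0 of 18040 genes, percent called 0, with 374 at an unadjusted p under 0.05, while limma voom called 0 (373 unadjusted). That edgeR fit thus did not call Ankrd31 itself, at a log2 fold change of -0.84 ± 0.17. With the replicate number as a block, edgeR did call Ankrd31 (adjusted p = 0.00505). DESeq2 called 2, Rn7sk and Ankrd31, with 242 at an unadjusted p under 0.05. With the replicate number as a block edgeR called 8 genes, 0.0443%, and again 0 of the 10. Log2 fold changes ran from -0.41 for Heyl to 0.27 for Hey1, with 5 of 10 below 0 against 52.2% of all tested genes. Their median was -0.018, and the median of tested genes was -0.0048. Non-overlap with lower levels in the knockout was seen for 1 of the 10 and for 3.5% of tested genes. Because the testis was profiled whole, fewer cells of a type and less RNA per cell cannot be told apart for any of these genes.

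**Figure D2:**
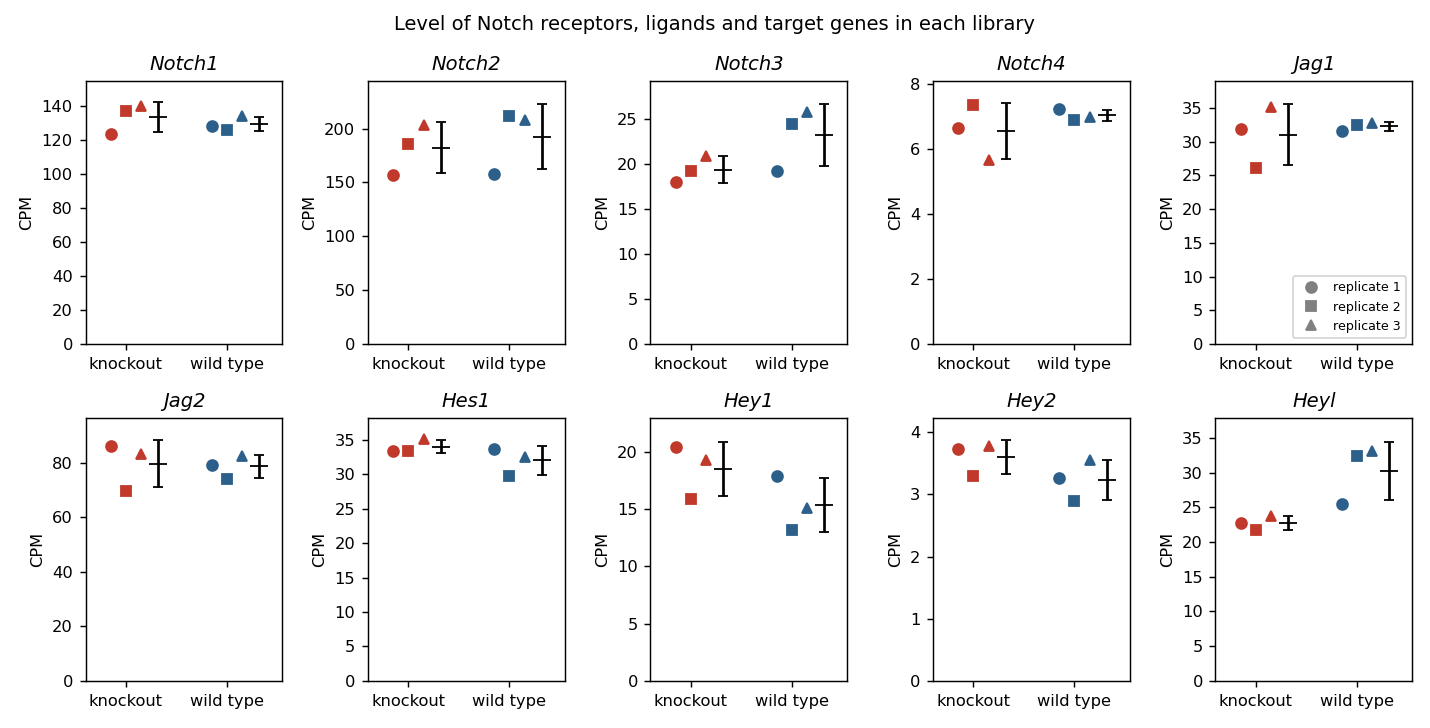
CPM of each of the 10 genes in knockout and wild-type libraries, with symbols for replicates 1 to 3 and bars for the mean and SD of 3 libraries. The knockout libraries lie below each wild-type library for Heyl, and the groups overlap for the other 9 genes.

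Notch1 (ENSMUSG00000026923, mm10 chromosome 2, 26457903 to 26516663, minus strand), a receptor studied in T cell development and in Sertoli cells, had 124, 137 and 140.3 CPM in knockout replicates 1, 2 and 3, against 128, 126 and 134 CPM in the wild-type replicates. The knockout libraries spanned the wild-type ones on both sides. The log2 fold change was 0.05 ± 0.07 (SE), and pair ratios were -0.05, 0.12 and 0.06. Its exons share 1068 bases with 0610009E02Rik and 414 with Gm13568 on the opposite strand, and the strand setting of the counting is not given in the sources used here.

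Notch2 (ENSMUSG00000027878, mm10 chromosome 3, 98013527 to 98150361, plus strand), a receptor broadly used in development, had 157, 186 and 204 CPM in the knockout libraries, against 158, 212 and 208 CPM in the wild-type libraries. Replicate 1 was lowest in both genotypes, and the groups overlapped. Pair ratios were -0.01, -0.19 and -0.03 on the log2 scale, and the fitted value was -0.08 ± 0.13. The SD within a genotype, 23.7 CPM in knockout and 30.2 CPM in wild-type libraries, exceeded the difference of the means, which were 182 CPM in knockout and 193 CPM in wild-type libraries. Gm42820 on the same strand shares 541 exon bases with it, so reads of the pair may have been lost or split.

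Notch3 (ENSMUSG00000038146, mm10 chromosome 17, 32120820 to 32166880, minus strand), the receptor of pericytes and vascular smooth muscle, had 17.9, 19.2 and 20.9 CPM in knockout replicates 1, 2 and 3. The wild-type libraries had 19.2, 24.5 and 25.7 CPM. Wild-type replicate 1 lay among the knockout libraries, and the other wild-type libraries lay above the highest knockout value. The means were 19.3 ± 1.49 CPM in knockout and 23.1 ± 3.43 CPM in wild-type testes (SD, n = 3 each), which puts the knockout mean at 83.6% of the other. Its log2 fold change was -0.26 ± 0.12, with pair ratios of -0.10, -0.35 and -0.30. The antisense gene Gm17276 shares 488 exon bases with Notch3, and its reads cannot be told apart if strand was not used.

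Notch4 (ENSMUSG00000015468, mm10 chromosome 17, 34564268 to 34588503, plus strand), which is largely an endothelial receptor, had 6.65, 7.37 and 5.68 CPM in the knockout libraries, against 7.24, 6.91 and 7.01 CPM in the wild-type libraries. Knockout replicate 2 was the highest of the 6 and knockout replicate 3 the lowest. The counts behind these values were 146, 161 and 126 in knockout and 160, 157 and 148 in wild-type libraries, and the log2 fold change was -0.10 ± 0.14.

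Jag1 (ENSMUSG00000027276, mm10 chromosome 2, 137081456 to 137116644, minus strand), a Jagged ligand with roles in vessels and in the Notch signal to Sertoli cells, had 31.8, 26.1 and 35.2 CPM in the knockout libraries, against 31.6, 32.5 and 32.7 CPM in the wild-type libraries. The coefficient of variation was 14.7% in knockout and 1.91% in wild-type libraries, and both the lowest and the highest value were in knockout libraries. Its log2 fold change was -0.05 ± 0.10. For Jag2 (ENSMUSG00000002799, mm10 chromosome 12, 112908590 to 112929495, minus strand), the other Jagged ligand, the knockout libraries had 86.1, 69.7 and 83.3 CPM and the wild-type libraries 79.2, 74.1 and 82.6 CPM. Replicate 2 was the lowest of each genotype for Jag2, and the log2 fold change was 0.02 ± 0.09.

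Hes1 (ENSMUSG00000022528, mm10 chromosome 16, 30064384 to 30067796, plus strand), the best known Notch target and a repressor of differentiation genes, had 33.4, 33.4 and 35.1 CPM in the knockout libraries, against 33.7, 29.7 and 32.5 CPM in the wild-type libraries. The groups overlapped through wild-type replicate 1. The log2 fold change was 0.09 ± 0.08, with pair ratios of -0.01, 0.17 and 0.11.

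Hey1 (ENSMUSG00000040289, mm10 chromosome 3, 8663359 to 8667256, minus strand), a Hey repressor of heart and vessel development, had 20.4, 15.9 and 19.3 CPM in knockout replicates 1, 2 and 3. The wild-type libraries had 17.9, 13.2 and 15.1 CPM. Each knockout library was above the wild-type library of its number, but knockout replicate 2 was below wild-type replicate 1. The means were 18.5 ± 2.37 CPM in knockout and 15.4 ± 2.36 CPM in wild-type testes (SD, n = 3 each), a ratio of 120.4%. The log2 fold change was 0.27 ± 0.13, and 0.27 ± 0.08 with the replicate block. A smaller SE with the block was not particular to Hey1. It went from 0.11 to 0.08 for Heyl, 0.12 to 0.08 for Notch3 and 0.13 to 0.05 for Notch2, and stayed at 0.16 for Hey2. Hey2 (ENSMUSG00000019789, mm10 chromosome 10, 30832359 to 30842801, minus strand), a related repressor with roles in heart and arteries, had 3.73, 3.30 and 3.78 CPM in the knockout libraries, against 3.26, 2.90 and 3.55 CPM in the wild-type libraries. These rest on 66 to 84 counts per library, and the log2 fold change was 0.16 ± 0.16. Genes higher in 3 of 3 pairs numbered 2 of the 10 and 13.9% of tested genes.

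Heyl (ENSMUSG00000032744, mm10 chromosome 4, 123233556 to 123249875, plus strand), the Hey family member known from vascular smooth muscle and from Sertoli cells, had 22.7, 21.8 and 23.7 CPM in knockout replicates 1, 2 and 3. The wild-type libraries had 25.5, 32.3 and 33.0 CPM in the same order of replicates. The knockout libraries lay close together, and each was below the lowest wild-type library, replicate 1. The means were 22.8 ± 0.974 CPM in knockout and 30.3 ± 4.19 CPM in wild-type testes (SD, n = 3 each), which puts the knockout mean at 75.2% of the other. The coefficient of variation was 4.28% in knockout and 13.9% in wild-type libraries. Pair ratios were -0.16, -0.57 and -0.48 on the log2 scale. The fitted log2 fold change was -0.41 ± 0.11 and lay at percentile 3.3 of tested genes. Lower levels in 3 of 3 pairs were seen for 3 of the 10 genes, Notch2, Notch3 and Heyl, and for 14.7% of tested genes.

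**Figure D3:**
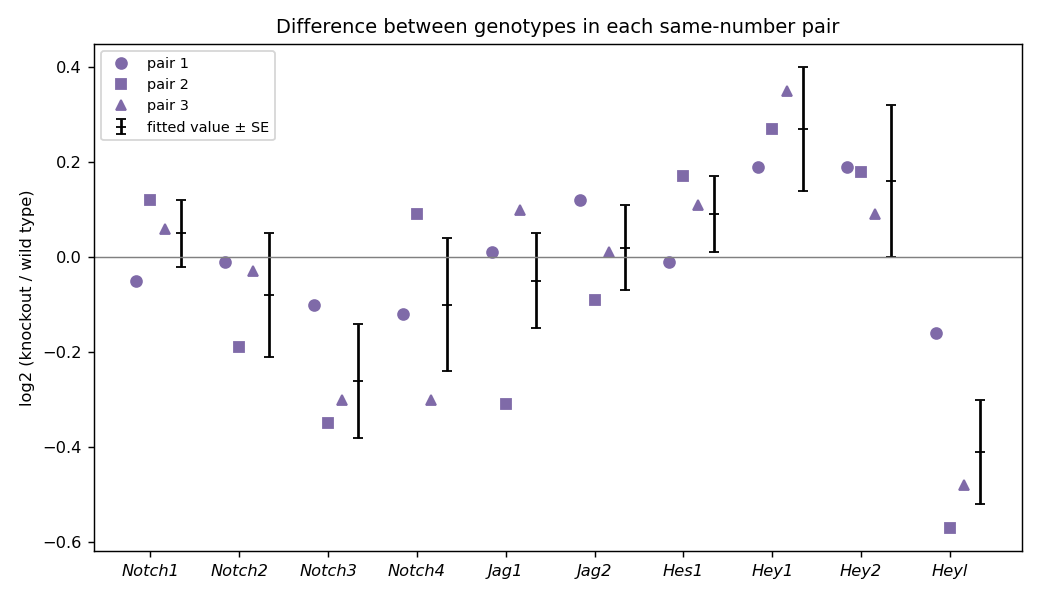
Log2 ratio of knockout over wild type for each of the 10 genes, in same-number pairs 1 to 3 (symbols) and as fitted over all genes (line with SE). Heyl lies at -0.16, -0.57 and -0.48 and Hey1 at 0.19, 0.27 and 0.35.

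The share of Heyl in the summed level of the 4 target genes rests on the same Heyl values and is no separate result. Heyl made up 15.9, 16.2 and 16.2% of the summed RPKM of Hes1, Hey1, Hey2 and Heyl in the knockout libraries, against 18.0, 24.7 and 23.2% in the wild-type libraries, without overlap. The sum itself was 27.9, 26.3 and 28.6 RPKM in knockout libraries and 27.7, 25.6 and 27.8 RPKM in wild-type libraries. That total thus overlapped between the genotypes, with means of 27.6 ± 1.21 RPKM in knockout and 27.1 ± 1.26 RPKM in wild-type libraries. The share of Hey1 was 20.5 ± 1.95% in knockout and 17.4 ± 2.09% in wild-type libraries.

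Over the 6 libraries, the gene whose pattern lay nearest to Heyl was Nanos3, which encodes an RNA-binding protein of undifferentiated spermatogonia. Nanos3 had 3.37, 3.11 and 3.69 CPM in the knockout libraries, against 3.94, 4.66 and 4.97 CPM in the wild-type libraries. Gm12497 and Plp2 came next. Nearness was the Euclidean distance of centred log2 CPM, which was 0.112, 0.126 and 0.131 for these 3 of 18040 genes. Notch3 was the nearest of the other 9 genes, at rank 29 and a distance of 0.229. For the 9 genes other than Heyl, the nearest among the 10 ranked between 189 (Jag2 for Jag1) and 7172 (Notch1 for Notch4). With 6 libraries such distances are a description.

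Heyl and Notch3 can come from several cell types, so marker sums are given beside them. The log2 ratio of the mean sums, knockout over wild type, was -0.01 for pericyte and vascular smooth muscle, 0.02 for peritubular myoid, 0.05 for Sertoli and -0.11 for endothelial markers. Clu made up most of the Sertoli sum, with means of 4291 CPM in knockout and 4020 CPM in wild-type libraries. Of the 9 Sertoli genes, 5 had a log2 fold change below 0 and 4 above. Mcam made up most of the pericyte sum, where 4 genes were below 0 and 3 above. The pericyte and vascular smooth muscle list, 7 of 7 detected, summed to 234, 241 and 253 CPM in knockout and 225, 253 and 257 CPM in wild-type libraries, and its pair ratios were 0.06, -0.07 and -0.02 on the log2 scale. Heyl as a percent of that sum was 9.70, 9.04 and 9.38% in knockout and 11.3, 12.8 and 12.9% in wild-type libraries, without overlap. The endothelial list, 12 of 12 detected, lay between 218 and 245 CPM in knockout and between 230 and 274 CPM in wild-type libraries. Its pair ratios were -0.07, -0.07 and -0.18, and 10 of its 12 genes had a log2 fold change below 0, against 52.2% of tested genes. Heyl relative to the endothelial sum was 10.4, 8.88 and 9.82% in knockout and 11.1, 12.5 and 12.1% in wild-type libraries. Peritubular myoid markers (5 of 5 detected) lay between 743 and 766 CPM in knockout and between 695 and 769 CPM in wild-type libraries, and Heyl relative to the Sertoli sum was 0.374, 0.340 and 0.393% in knockout and 0.423, 0.514 and 0.595% in wild-type libraries. Heyl did not overlap between genotypes relative to any of these 4 sums. The log2 ratios of the sums lay between -0.11 and 0.05, so these ratios largely repeat the Heyl levels. How often such ratios part the genotypes over all tested genes was not computed, and the part of cell content was not tested. Notch3 relative to the pericyte sum was 7.66, 7.96 and 8.26% in knockout and 8.56, 9.67 and 10.02% in wild-type libraries, without overlap. Relative to the endothelial, arterial endothelial, peritubular myoid and Sertoli sums, Notch3 overlapped between the genotypes.

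Interstitial stroma markers (7 of 7 detected) summed to between 2067 and 2344 CPM in knockout and between 1963 and 2711 CPM in wild-type libraries, with pair ratios of 0.07, -0.11 and -0.21, of which pairs 2 and 3 are also those where Heyl and Notch3 were furthest below 0. Spermatocyte markers (6 of 6 detected) had pair ratios of -0.02, 0.41 and 0.31, again largest in pairs 2 and 3. The part of stroma and spermatocyte content in the Heyl and Notch3 values was not tested. Leydig markers had pair ratios of 0.09, 0.95 and -0.64 and macrophage markers 0.12, 0.53 and -0.27, and spermatogonial markers 0.03, -0.04 and -0.02. The 6 arterial endothelial markers had 0.01, 0.10 and -0.10, with 3 genes below 0 and 3 above and a median log2 fold change of 0.05. Gja4 and Sox17 lay at -0.29 ± 0.15 and -0.46 ± 0.15, Efnb2 at -0.01 ± 0.16, and Gja5, Bmx and Unc5b at 0.25 ± 0.22, 0.13 ± 0.31 and 0.11 ± 0.09. Levels were lower in the knockout without overlap for Gja4 and Sox17, against 3.5% of tested genes, and overlapped for the other 4. None of the 6 was called by edgeR, and they were named after their values were seen. Without wild-type replicate 3, the library high in epididymis and rete markers, the log2 fold change of Heyl was -0.34 and that of Notch3 -0.17.

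**Figure D4:**
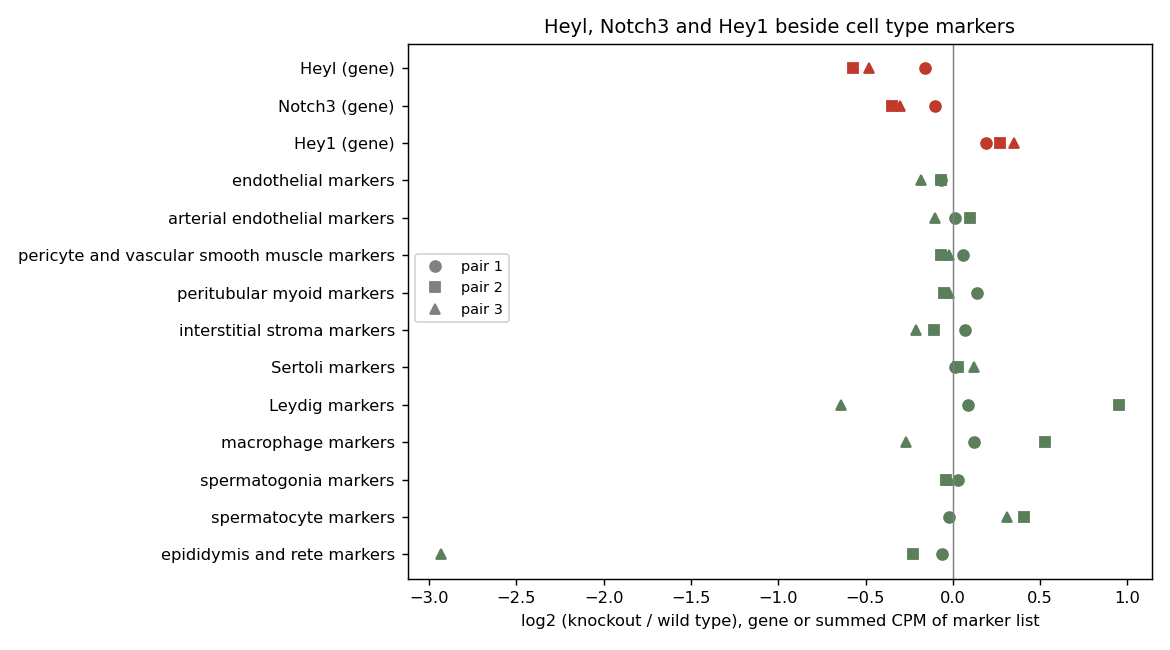
Log2 ratio of knockout over wild type in pairs 1 to 3 for Heyl, Notch3 and Hey1 and for the summed CPM of 11 marker lists. Pericyte, myoid and Sertoli sums lie between -0.07 and 0.14, and endothelial sums at -0.07, -0.07 and -0.18. Interstitial stroma sums lie at 0.07, -0.11 and -0.21, and spermatocyte sums at -0.02, 0.41 and 0.31. The epididymis and rete sum reaches -2.93 in pair 3, and Heyl reaches -0.57 in pair 2. The part of cell content was not tested.

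In the wider pathway, 64 further genes were listed by role, 61 passed the filter on low counts (Hes2, Hes3 and Rbpjl did not), and edgeR called 0 of them in either direction, with or without the block. At an unadjusted p under 0.05 there were 2, Kat2b and Myc, against 2.07% of tested genes. With the block there were 8 of 61, against 1349 of 18040 tested genes (7.48%), and an unadjusted p is no call. Log2 fold changes were below 0 for 39 and above 0 for 22, where 52.2% of all tested genes were below 0. Their median was -0.028, and the median of tested genes was -0.0048. Groups did not overlap for 4 genes lower in the knockout (Dlk2, Aph1a, Mib2 and Myc) and 3 genes higher (Adam17, Ncstn and Kat2b), against 3.5% and 3.09% of tested genes.

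Of 6 other ligand genes, 4 had values below 0, against 52.2% of tested genes. Dlk1, a Delta-like protein of stromal and Leydig precursors that lacks the receptor-binding domain of canonical ligands, had 129, 145 and 139 CPM in the knockout libraries, against 125, 213 and 192 CPM in the wild-type libraries. Wild-type replicate 1 was the lowest of the 6, and the log2 fold change was -0.36 ± 0.19 (edgeR adjusted p = 1). Its relative Dlk2 had 0.774, 0.641 and 0.991 CPM in knockout libraries, against 1.09, 1.10 and 1.04 CPM in wild-type libraries, at -0.42 ± 0.27 (edgeR adjusted p = 1). Of 5 other Hes genes, 3 were tested. Hes5, a Notch target of neural progenitors, had -0.29 ± 0.20 and Hes7 of the segmentation clock -0.25 ± 0.28.

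Receptor-cutting genes lay near 0, with a median of 0.04 over 10 genes, of which 3 were below 0 and 7 above. The gamma-secretase subunit genes Ncstn and Aph1a had 0.09 ± 0.07 and -0.12 ± 0.10. Of 8 genes for receptor glycosylation 6 were below 0, against 52.2% of tested genes. The fringe gene Mfng had -0.33 ± 0.18 and the O-GlcNAc transferase gene Eogt -0.19 ± 0.12. In the nuclear activation complex, the acetyltransferase gene Kat2b had 69.1, 75.1 and 77.9 CPM in the knockout libraries, against 67.9, 62.1 and 67.5 CPM in the wild-type libraries, and 0.17 ± 0.07 (edgeR adjusted p = 1). The Mastermind gene Maml2 had -0.28 ± 0.22. Corepressor genes had a median of -0.05, with Spen at -0.13 ± 0.09 and Ctbp1 at -0.08 ± 0.06. Among genes for endocytosis and turnover, the ubiquitin ligase genes Neurl1b and Dtx4 had -0.23 ± 0.13 and -0.12 ± 0.08.

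Of 4 other target genes, Myc had 8.79, 9.89 and 8.83 CPM in the knockout libraries, against 10.01, 11.9 and 12.3 CPM in the wild-type libraries, without overlap. Its log2 fold change was -0.31 ± 0.12 (edgeR unadjusted p = 0.029, adjusted p = 1). Nrarp, a feedback inhibitor that closely follows Notch activity in other tissues, had 29.7, 29.8 and 27.0 CPM in the knockout libraries, against 29.0, 31.1 and 30.2 CPM in the wild-type libraries. It overlapped between the genotypes, at -0.06 ± 0.08. Gdnf, the stem cell growth factor of Sertoli cells, and Cyp26b1, the retinoic acid hydroxylase, are reported to be held down by Hes and Hey proteins in mouse Sertoli cells. Gdnf had 10.6, 15.3 and 16.5 CPM in knockout and 11.8, 18.4 and 13.8 CPM in wild-type libraries, and Cyp26b1 had 335, 445 and 437 CPM in knockout and 390.0, 449 and 437 CPM in wild-type libraries. Both overlapped, at -0.06 ± 0.20 and -0.07 ± 0.11.

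**Figure D5:**
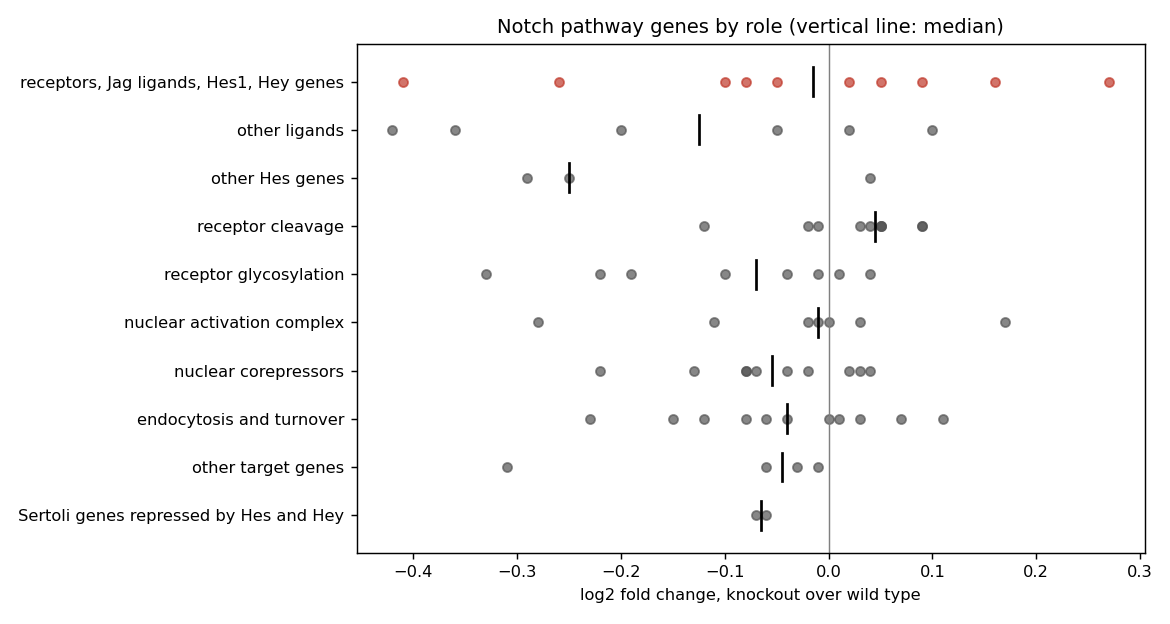
Log2 fold change, knockout over wild type, of the 10 genes and of 61 tested genes of the wider pathway by role, with the median of each role as a vertical line. Values lie between -0.42 (Dlk2) and 0.27 (Hey1).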

How the data were processed

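RNA from whole testes was made into strand-specific libraries, per the labels' protocols. The authors deposited raw counts per gene for 6 libraries, and per the submitters' processing notes used featureCounts 1.6.0 for counting, GSNAP for alignment to mm10 and bcl2fastq 2.19.1. Strand setting, handling of multiply matching reads and annotation release are not given there. The other deposited value used is exon length in bases, per the file headers. The 92 spike-in rows were left out, and 49326 of 49671 gene rows matched GENCODE M21 (0.0311% of counts did not).

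Counts were fitted with edgeR 4.0.16 under R 4.3.3 (TMM factors after filterByExpr, robust quasi-likelihood fit, two-sided, Benjamini-Hochberg over 18040 genes, threshold 0.05; biological coefficient of variation 10.3%), after tests on simulated counts. DESeq2 1.42.0, limma 3.58.1 voom, other scalings, no filter, the replicate block and fits without libraries or pairs were alternatives. Pair ratios used log2 CPM with a prior count of 2. Same-numbered libraries of the genotypes deviated together from their group means (r = 0.42, 0.26 and 0.28, each over 0.1), so the numbers were taken as pairs on a hint from these data. Replicates of a genotype differed with a chi-square per degree of freedom of 7.36 to 13.0, so no library repeated another. The design text names mice, and what same-numbered mice share is not stated in the labels. The 10 genes, lists and tests were chosen with earlier results of these data known. From each pathway list the 2 genes with the smallest p are named, while Mib2, Adam17 and the 6 arterial markers were named after their values were seen.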

Additional observations from a re-analysis of the deposited data

How the results depend on the processing

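Heyl, Notch3 and Notch4 were below 0 and Hey1, Hey2, Hes1 and Notch1 above 0 in 17 of 17 alternatives. All 17 refit the same libraries or a part of them, so they are not independent of each other. Ranges were -0.52 to -0.32 for Heyl, -0.37 to -0.17 for Notch3 and 0.17 to 0.39 for Hey1. Those of Notch4 (-0.21 to -0.01) and Notch1 (0.01 to 0.1) came close to 0. Jag1 was below 0 in 15 of 17, Notch2 in 16 and Jag2 in 4. The median of the 10 genes was -0.018, between -0.022 and 0.05 when 1 library was left out (the value was 0.05 without knockout replicate 2, and 0.025 with wild-type replicate 3 left out), and -0.065 and 0.027 with the replicate block and without pair 1 or 2. Genes called numbered 0 in edgeR, 0 when any 1 library was left out, 2 with DESeq2, 1 with no filter on low counts and 8 with the replicate block. With the block, DESeq2 called 14 and limma voom 8, which were added after seeing the data, and edgeR called 63 without pair 1, 57 without pair 2 and 0 without pair 3. The 63 held Heyl (-0.52 ± 0.09) and 1 gene of the wider pathway, Dlk1 (-0.51 ± 0.05, edgeR adjusted p = 0.00488). That fit left out pair 1, where Heyl lay at -0.16, against -0.57 and -0.48 in pairs 2 and 3, and Dlk1 at 0.05. Heyl was chosen with this contrast known, so its place among the 63 is a description and no test. No other alternative called any of the 10 or of the 64. The pairing changed no other call of these genes. By CPM, without division by length, 3 of 10 genes kept their place in the order, against 8 to 10 when 1 library was left out. Of 11 marker lists 6 had a lower mean sum in the knockout, 2 to 6 when 1 library was left out, with 2 without wild-type replicate 3. The causes were not tested. Depth limits Hey2 and Notch4 most, at 66 to 161 counts per library.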
